A study of Rattus norvegicus with 20 samples.

Results

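In all, 10 genes of B cells, other leukocytes and lymph node were followed through the white adipose tissue of rats on mild food restriction. The 10 genes (Glycam1, Madcam1, Cxcl13, Cd79b, Il2rg, Cd4, Fermt3, Irf8, Dnase1l3 and Slpi) are 10 of the 10411 genes that the array's annotation ties to a probe set of 1 symbol, and each has 1 probe set. They were chosen on the values reported here, because they had been seen to move together between samples, so their levels, differences and slopes are a description.

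Male Wistar rats, purchased at 5 weeks and 6 weeks old when the experiment began, were given the whole of a recorded free intake (control) or 5%, 10%, 20% or 30% less, for 1 week or 1 month. After a 16 h fast white adipose tissue was taken, visceral fat by the study's methods, with no depot named. Genotype and strain were the same in all groups. The RNA of the 5 rats of a group was pooled, and the labelled RNA of the pool was put on 2 Affymetrix chips, which makes 10 pools and 20 chips. The 2 chips are technical repeats, each group is 1 pool, and the spread between rats cannot be seen.

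Lymph nodes lie embedded in visceral fat, and smaller lymphoid clusters are scattered through it. In a node, lymphocytes enter from blood through high endothelial venules, whose cells carry sugar-coated addressins that the lymphocyte's homing receptors bind, and stromal cells secrete chemokines that sort B cells from T cells. B cells are known by the signalling chains of their antigen receptor. In bulk tissue, fewer cells of a type and less RNA per cell cannot be told apart.

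Values are MAS5 signals, the array software's summary of a probe set's brightness, given as the geometric mean of a pool's 2 chips. A log2 difference of 1 is a 2-fold difference. The technical standard error (SE) of a difference between pools comes from the 2 chips of every pool and covers chip error alone. Duplicate chips correlated at 0.934 to 0.95 over all probe sets. Signals of different probe sets are not compared with each other, and detection calls were not used here.

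The genes did not all fit the description that they move together. Of these, 8 (Glycam1, Cxcl13, Cd79b, Il2rg, Irf8, Slpi, Dnase1l3 and Fermt3) ranged 6.02-fold to 184-fold over the 10 pools, and each of the 8 had a wider range than 98.7% or more of the 9520 probe sets bright enough to be tested. Madcam1 ranged 1.40-fold and Cd4 1.80-fold, against a median of 1.60-fold for all tested probe sets. All 10 passed the filter on dim probe sets, a mean signal of at least 22.8, although Cd79b, Fermt3, Irf8, Cxcl13 and Glycam1 were below it in their lowest pools. After the mean of each duration was subtracted, the 28 pairs among the 8 genes had Pearson's r of 0.891 to 0.995 over the 10 pools (median 0.946), whereas Madcam1 had -0.02 to 0.11 with these 8 and Cd4 0.48 to 0.75. These r share the same pools and describe how the genes were chosen.

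**Figure D1:**
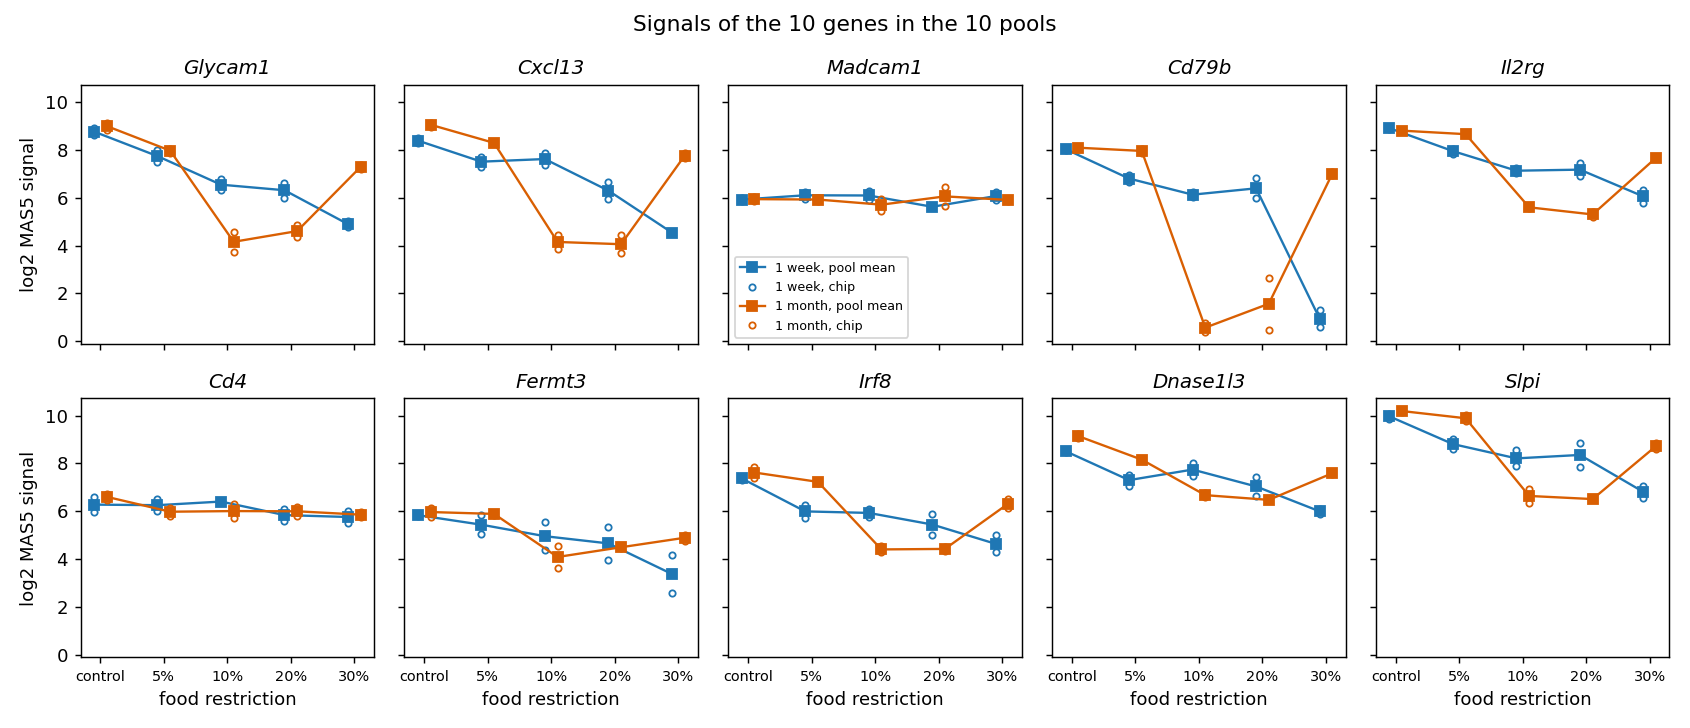
Signal of the 10 genes in each pool, on a log2 axis, against the level of food restriction. Filled squares are pool means joined by duration, and open circles are the 2 chips of a pool. In 8 panels the pools are lowest at 30% after 1 week and at 10% and 20% after 1 month, while Madcam1 stayed between 49.4 and 68.9 and Cd4 between 54.2 and 97.3.

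Sequences upstream of 4 genes are shown so that the node genes that moved and the one that did not can be read beside a lymphocyte gene. Windows of 250 bases before to 50 after a start site were taken from RefSeq (build GRCr8), which held 7 of the 10 genes (all but Slpi, Cd4 and Cd79b). The windows are Glycam1 at chr7:136561250-136561549 (minus strand), Cxcl13 at chr14:13917871-13918170 (minus strand), Madcam1 at chr7:10690273-10690572 (minus strand) and Il2rg at chrX:70438951-70439250 (minus strand), each read 5′ to 3′ along its gene. Capitals mark matches to the motifs searched.
Glycam1: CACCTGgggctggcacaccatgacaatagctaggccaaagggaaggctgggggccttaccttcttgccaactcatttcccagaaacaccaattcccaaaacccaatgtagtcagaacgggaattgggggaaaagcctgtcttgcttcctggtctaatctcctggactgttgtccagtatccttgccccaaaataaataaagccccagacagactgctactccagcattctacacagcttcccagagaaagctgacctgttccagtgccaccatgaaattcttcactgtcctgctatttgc
Cxcl13: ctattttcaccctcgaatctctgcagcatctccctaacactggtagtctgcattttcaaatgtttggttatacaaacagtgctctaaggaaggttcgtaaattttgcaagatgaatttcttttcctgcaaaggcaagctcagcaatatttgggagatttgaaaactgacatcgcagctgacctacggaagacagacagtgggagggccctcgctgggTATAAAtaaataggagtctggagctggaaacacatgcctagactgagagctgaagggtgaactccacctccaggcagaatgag
Madcam1: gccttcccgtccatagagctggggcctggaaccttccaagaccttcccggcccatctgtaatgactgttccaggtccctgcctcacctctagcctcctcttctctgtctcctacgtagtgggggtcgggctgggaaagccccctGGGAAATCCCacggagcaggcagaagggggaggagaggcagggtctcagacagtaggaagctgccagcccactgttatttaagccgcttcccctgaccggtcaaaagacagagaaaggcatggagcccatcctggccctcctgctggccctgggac
Il2rg: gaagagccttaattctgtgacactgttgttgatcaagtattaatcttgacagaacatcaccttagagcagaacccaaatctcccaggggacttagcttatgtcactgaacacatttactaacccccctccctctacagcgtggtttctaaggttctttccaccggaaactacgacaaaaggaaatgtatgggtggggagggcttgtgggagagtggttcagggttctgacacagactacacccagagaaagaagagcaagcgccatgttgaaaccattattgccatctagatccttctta

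In all, 8 motif spellings were searched on both strands: kappaB as GGGANNTTC and as GGGANNTCC, PU.1 as GAGGAA, RUNX as TGTGGT, E-box as CAGGTG, Ets as CCGGAAG, octamer as ATTTGCAT and the TATA box as TATAAA. The second kappaB spelling and the TATA box were added with these windows in view. The Madcam1 window held GGGANNTCC on both strands, as overlapping matches that start 106 and 105 bases before the start site, and 4.34% of all 33469 windows hold that spelling. The Cxcl13 window held TATAAA 33 bases before its start, as did Irf8 at 29 bases, and 14.2% of windows hold it. The Glycam1 window began with an E-box on the opposite strand (18.8% of windows), the Dnase1l3 window held an E-box and a RUNX match, and the Fermt3 window held RUNX (17.3% of windows). The Il2rg window held none of the 8 spellings. No single spelling was found in all of the windows of genes that moved. Of the spellings without a match in the 7 windows, GGGANNTTC stands in 4.05% of all windows, GAGGAA in 27.6%, CCGGAAG in 8.75% and ATTTGCAT in 1.78%.

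Glycam1 encodes a mucin-like ligand of L-selectin made by high endothelial venules and, in lactation, by mammary epithelium. At 1 week its signal was 437 in the control pool, 215 at 5%, 93.8 at 10%, 79.8 at 20% and 29.9 at 30% restriction. At 1 month it was 513 in the control pool, 251 at 5%, 17.9 at 10%, 24.4 at 20% and 157 at 30%. Glycam1 stepped down with each level of restriction at 1 week, where the 10% and 20% pools lay within 2 technical SE of each other and every other neighbour did not. At 1 month the order was different, since the 10% and 20% pools were lowest and the 30% pool lay between them and the 5% pool.

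Cxcl13 is the chemokine that follicular stroma uses to draw B cells. At 1 week the signal was 337 in the control pool, 183 at 5%, 197 at 10%, 79.0 at 20% and 23.4 at 30%. At 1 month it was 533 in the control pool, 315 at 5%, 17.8 at 10%, 16.7 at 20% and 216 at 30%. Its lowest pools were those of Glycam1. In the 10% pool at 1 week it did not step down further, since it lay within 2 technical SE of the 5% pool, where Glycam1 was lower at 10% than at 5% by 1.19 on the log2 scale (technical SE 0.27).

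Madcam1 is the addressin of gut-draining venules and binds the lymphocyte integrin that homes to gut. At 1 week its signal was 60.9 in the control pool, 68.9 at 5%, 68.5 at 10%, 49.4 at 20% and 67.4 at 30%, and at 1 month 61.7, 60.9, 52.5, 66.8 and 60.2 in the same order of pools. No neighbours in either order differed by more than 2 technical SE. Its lowest chip had a signal of 44.2 and its highest 87.6, so it was above the filter of 22.8 on every chip.

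Cd79b is one of the signalling chains of the B cell antigen receptor. At 1 week its signal was 263 in the control pool, 112 at 5%, 70.2 at 10%, 84.3 at 20% and 1.94 at 30%. At 1 month it was 274 in the control pool, 249 at 5%, 1.49 at 10%, 2.97 at 20% and 129 at 30%. It was near the bottom of the scale in 3 pools and stayed at 70.2 or above in the other 7. Its range of 184-fold rests on those near-zero signals and is 17.1-fold if every signal under 16 is set to 16.

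Il2rg encodes the common gamma chain shared by several interleukin receptors of lymphocytes. The control pool at 1 week had a signal of 482, the 5% pool 248, the 10% pool 141, the 20% pool 145 and the 30% pool 66.6. The control pool at 1 month had 449, the 5% pool 406, the 10% pool 48.6, the 20% pool 39.6 and the 30% pool 205. Il2rg had the smallest chip error of the 10, and the 5% and control pools at 1 month lay within 2 technical SE.

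Irf8 is a transcription factor of B cells and dendritic cells. Its signal at 1 week was 166 in the control pool, 63.7 at 5%, 61 at 10%, 43.6 at 20% and 24.9 at 30%, and at 1 month 197, 150, 21.2, 21.5 and 80.1 in the same order. Fermt3 (kindlin-3) activates integrins in blood cells. It had 57.2, 43.4, 31.1, 25.2 and 10.4 at 1 week and 62.6, 59.3, 17.0, 22.5 and 29.7 at 1 month. At 1 week neighbours in the order of Fermt3 lay within 2 technical SE of each other down to the 20% pool, though the 10% and 20% pools lay at log2 differences of -0.88 and -1.18 from control (technical SE 0.40).

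Cd4 is the coreceptor of helper T cells and in rat is also carried by macrophages. It had 77.6, 76.3, 84.7, 57.3 and 54.2 at 1 week and 97.3, 63.1, 64.3, 63.9 and 58.0 at 1 month, in the order control, 5%, 10%, 20% and 30%. Unlike the 8 genes above, the restricted pools at 1 month were all at one level within 2 technical SE, and the 30% pool was not above the 10% and 20% pools.

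Slpi, a secreted inhibitor of neutrophil proteases made by epithelia and leukocytes, followed Il2rg closely. Its signal was 1001, 449, 296, 327 and 112 at 1 week and 1168, 949, 99.7, 91.1 and 425 at 1 month, in the same order. In all 8 restricted pools the log2 difference of Slpi from control lay within 0.34 of that of Il2rg (technical SE 0.24).

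Dnase1l3, a secreted nuclease of dendritic cells and macrophages that digests DNA outside cells, had 365, 158, 214, 131 and 63.9 at 1 week and 565, 286, 102, 89.0 and 192 at 1 month. It was higher at 10% than at 5% after 1 week by 0.44 on the log2 scale (technical SE 0.16), as no other of the 8 genes was beyond 2 technical SE.

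Set against the control pool of its duration, each restricted pool had more members lower than higher. A gene is counted as lower where both chips were lower than the control chip of the same number and the pool mean was lower by at least 1.5-fold. At 1 week 7 of the 10 were lower in the 5% pool, 8 in the 10% pool, 8 in the 20% pool and 8 in the 30% pool, and of all tested probe sets 4.35%, 7.21%, 8.73% and 11.8% were. At 1 month 4 were lower in the 5% pool, 9 in the 10% pool, 9 in the 20% pool and 9 in the 30% pool, with 3.33%, 13.7%, 10.2% and 8.07% of all tested probe sets. None of the 10 was higher by this rule in any pool. The members were chosen on these differences, so nothing is read from the shares.

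In the 5% pool at 1 month some of the 8 genes lay near control and others did not. The 4 counted there were Glycam1, Cxcl13, Dnase1l3 and Cd4. Glycam1 had log2 differences from control of -0.80 and -1.26 on its 2 chips, Cxcl13 -0.66 and -0.86, and Dnase1l3 -0.86 and -1.11. Il2rg had -0.12 and -0.18, Cd79b -0.09 and -0.18, Slpi -0.38 and -0.22, and Fermt3 0.16 and -0.32. Irf8 lay between, with -0.68 and -0.10. Glycam1 was lower than Il2rg in this difference by 0.88 (technical SE 0.30), Cxcl13 by 0.61 (technical SE 0.31) and Dnase1l3 by 0.84 (technical SE 0.21), of which that of Cxcl13 lay within 2 technical SE. With 1 pool a group no test over animals can be made of this split.

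**Figure D2:**
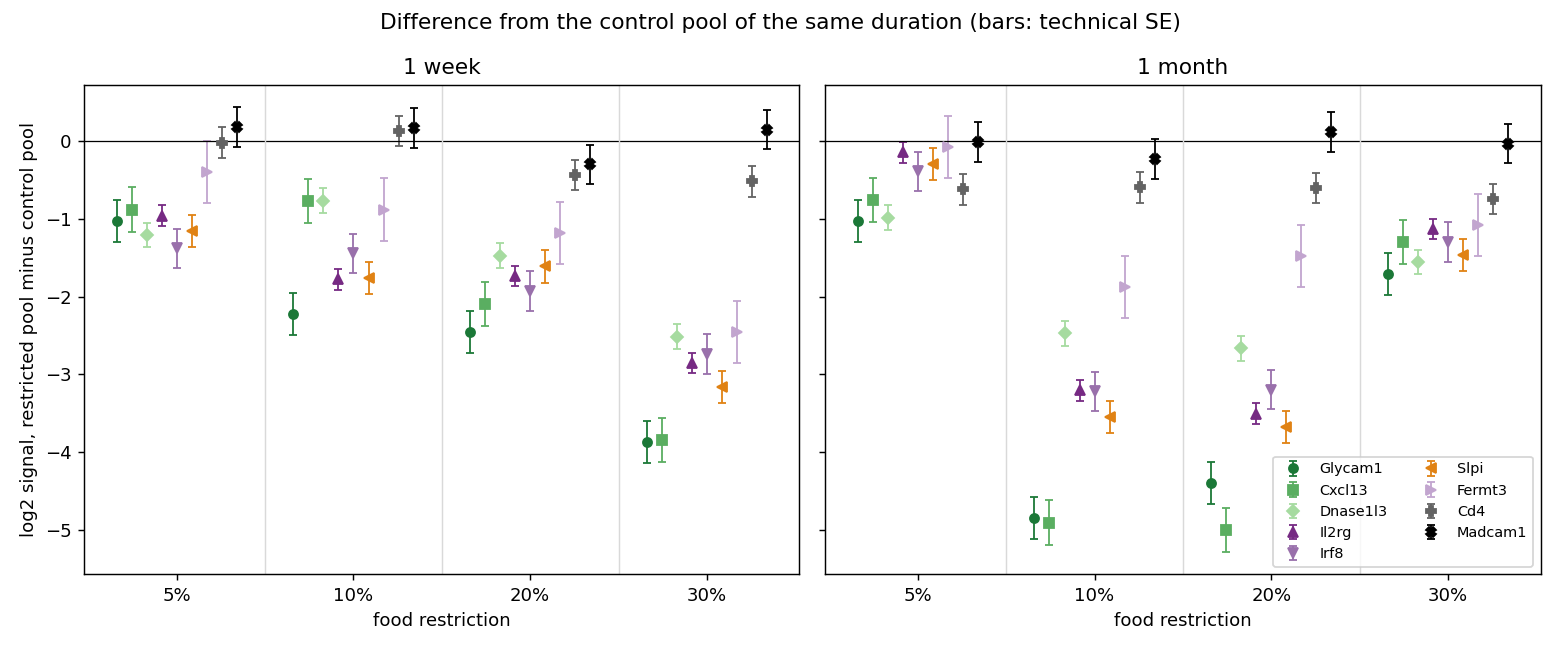
Log2 signal in each restricted pool minus that in the control pool of the same duration, for 9 of the genes, with bars for the technical SE (Cd79b is left out because its lowest signals are under 3). In the 5% pool at 1 month Glycam1, Cxcl13 and Dnase1l3 lay at -1.03, -0.76 and -0.98, and Il2rg at -0.15.

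Node vessel and stroma genes were compared pool by pool with lymphocyte and other leukocyte genes, here called the lymphocyte side. The mean of Glycam1, Madcam1 and Cxcl13, less the mean of Cd79b, Il2rg, Cd4, Fermt3 and Irf8, each as a difference from control, was 0.22, 0.23, -0.23 and 0.61 at 1 week for 5%, 10%, 20% and 30%, and -0.33, -0.04, -0.03 and 0.05 at 1 month (technical SE 0.22). Of the 8 values only that of the 30% pool at 1 week was beyond 2 technical SE. Cd79b was near zero in that pool and in the 10% and 20% pools at 1 month, and with signals under 16 set to 16 these 3 values were -0.14, -0.70 and -0.47. With Cd79b, Il2rg and Cd4 alone on the lymphocyte side the values were 0.16, 0.24, -0.35 and 0.96 at 1 week. At 1 month they were -0.30, 0.45, 0.45 and -0.03 (technical SE 0.25). With Glycam1 and Cxcl13 alone on the node side the values were -0.16, -0.32, -0.89 and -0.73 at 1 week and -0.62, -1.59, -1.63 and -0.44 at 1 month (technical SE 0.25). With Cd4, which also hardly moved, left out of the lymphocyte side as well, they were 0.04, 0.01, -0.65 and -0.08 at 1 week and -0.71, -0.92, -1.02 and -0.36 at 1 month (technical SE 0.27), and with signals under 16 set to 16 too, that of the 30% pool at 1 week was -1.01 and those of the 10% and 20% pools at 1 month -1.72 and -1.55. Leaving out Madcam1, alone or with Cd4, was a choice made after seeing the data. The comparison thus depended on which genes stood on each side and on the near-zero signals of Cd79b. Only in the 5% pool at 1 month did all 8 alternatives keep the sign, at -0.24 to -0.71. Setting signals under 16 to 16 could not change the value there, since these genes had no such signals in that pool or its control. The value of -0.33 first given for that pool lay within 2 technical SE.

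Against Il2rg alone, the difference of Glycam1 from control was more negative in every restricted pool, by 0.07, 0.44, 0.72 and 1.02 at 1 week and by 0.88, 1.64, 0.89 and 0.58 at 1 month on the log2 scale (technical SE 0.30). Only the first 2 of the 1-week values and the last 1-month value were within 2 technical SE. For Cxcl13 it was more negative than that of Il2rg by 1.70 and 1.49 in the 10% and 20% pools at 1 month, but less negative by 1.01 in the 10% pool at 1 week (technical SE 0.31). For Dnase1l3 the sign varied, less negative than Il2rg by 0.74 and 0.84 in the 10% and 20% pools at 1 month and more negative by 0.84 and 0.43 in the 5% and 30% pools (technical SE 0.21).

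Across all 10 pools, 2 comparisons were fitted on every tested probe set with limma, with the pool as the unit and duration as a covariate. The first, called the dose slope, is the change in log2 signal for each 10% of food withheld. Its median was -0.68 over the 10 members and -0.01 over all tested probe sets, with -0.91 for Glycam1 (SE 0.36), -0.92 for Cxcl13 (SE 0.41), -0.69 for Il2rg (SE 0.28), -1.35 for Cd79b (SE 0.69) and -0.0045 for Madcam1 (SE 0.05). The second sets the 8 restricted pools against the 2 control pools, where the median log2 difference was -1.93 over the members and -0.03 over all tested probe sets. Since the members were chosen on these pools, no test of them is given. At an adjusted p under 0.05, 3.69% of all tested probe sets had a lower and 5.71% a higher dose slope, and restricted against control 1.6% were lower and 4.34% higher. Without the control and 30% pools of 1 week, the slopes of all 10 were negative, with -0.67 for Glycam1 (SE 0.50), -0.55 for Il2rg (SE 0.38) and -0.04 for Madcam1 (SE 0.07), and over all tested probe sets 4 slopes were called lower and 11 higher.

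Genes of the same cell types that were not members were read from lists chosen with earlier results of these data known. All 11 tested T cell genes had negative slopes and none passed limma's threshold after adjustment (median slope -0.78), among them Cd3d of the T cell receptor complex with -1.33 (SE 0.50, adjusted p = 0.106) and the surface receptor Cd5 with -0.87 (SE 0.31, adjusted p = 0.0974). All 18 tested leukocyte genes shared by several cell types had negative slopes too, and 1 passed the threshold. This was the actin-binding Lsp1, which fell by 0.61 per 10% (SE 0.15, adjusted p = 0.0291). Single pools of 1 month decided these counts. Without the 30% pool limma called 11 of 11 T cell genes and 16 of 18 shared leukocyte genes lower, and without the 10% pool 8 of 11 and 17 of 18. Over all 9520 tested probe sets the lower slopes numbered 351 with all pools, 854 without that 30% pool and 1008 without that 10% pool. Leaving out the 30% pool of 1 week instead gave 26. By the 1.5-fold rule the T cell genes were lower in 10, 11, 11 and 11 of 11 at 1 week and in 0, 11, 11 and 10 of 11 at 1 month, from 5% to 30%. In the 5% pool at 1 month, where Glycam1 and Cxcl13 were lower, the T cell list differed from control by a mean of 0.03 on the log2 scale over 16 genes, and the shared leukocyte list by -0.08 over 19.

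B cells were read through 7 genes of which Cd79b was 1. Of the other 4 that were tested, none passed the threshold, and Cd37 (a B cell tetraspanin) and Cxcr5, the receptor for Cxcl13, had slopes of -0.54 (SE 0.17, adjusted p = 0.0716) and -0.37 (SE 0.12, adjusted p = 0.0698). Cd40 hardly moved, with log2 signals of 5.58 to 6.15 and a slope of -0.06 (SE 0.05). Fcer2, the low-affinity IgE receptor of B cells, was too dim to be tested and was named after its values were seen. Its log2 signal was 4.62 in the control pool at 1 week and 4.39 and 4.46 in the control and 5% pools at 1 month, and at most 1.36 in the other 7 pools. The transcription factor Ebf1, which preadipocytes also express, stayed between 6.10 and 6.96 and had a slope of 0.02 (SE 0.07). The plasma cell list held 2 tested genes, of which Xbp1, a regulator of secretory cells also used outside them, rose by 0.22 per 10% (SE 0.03, adjusted p = 0.00437).

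Of the other genes of node vessels and stroma, the 7 tested did not follow Glycam1 and Cxcl13 as a group. None of the 7 passed the threshold in either direction and their median slope was 0.05. The surface enzyme Bst1 had log2 signals of 5.55 and 5.61 in the control and 5% pools at 1 month and 3.02 and 3.08 at 10% and 20%, with a slope of -0.40 (SE 0.23, adjusted p = 0.259), and Prox1, the lymphatic endothelial transcription factor, had -0.27 (SE 0.09, adjusted p = 0.0883). The lymphotoxin receptor Ltbr (0.07, SE 0.05) and the alarmin Il33 (0.08, SE 0.03) had slopes just above 0. Tnfsf11, too dim to be tested, had log2 signals of 4.76 in control and 0 at 30% at 1 week. At 1 month it had 5.13 in control, 4.24 at 5% and 1.05 at 10%. Selp, also too dim, had 2.18 and 2.87 in those 1-week pools and 3.08, 1.96 and 3.89 in those of 1 month. Both were named after their values were seen.

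Genes of class II antigen presentation, by which B cells, dendritic cells and macrophages show peptides to T cells, had negative slopes in 9 of 9, and 1 passed the threshold (RT1-DMa, which loads peptides, -0.35, SE 0.10, adjusted p = 0.0472). In the dendritic cell list 1 of 5 tested was lower (the integrin Itgae, -0.28, SE 0.08, adjusted p = 0.0492), with Cd83, a marker of mature dendritic cells, at -0.57 (SE 0.17, adjusted p = 0.0572). Of 7 tested cell division genes 1 was lower (Pclaf, which binds the replication clamp, -0.59, SE 0.16, adjusted p = 0.041).

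Genes of the fat macrophage list were read in the same way, although bulk RNA does not show whether their cells lay in the fat or in a node. In the slope 1 of 13 was lower (Aif1, -0.40, SE 0.10, adjusted p = 0.0365) and 1 higher (Cd14, 0.16, SE 0.04, adjusted p = 0.0422), and restricted against control 5 of 13 were lower, among them the signalling adaptors Tyrobp (-0.89, SE 0.17, adjusted p = 0.0178) and Fcer1g (-0.51, SE 0.10, adjusted p = 0.0195). In the 5% pool at 1 month 6 of the 13 were lower by the 1.5-fold rule, where 0 of the 11 T cell genes were, and in the 30% pool at 1 week 3 of 13, where 11 of the 11 T cell genes were. Of 12 adipocyte genes 5 were higher in restricted pools than in control, with Pparg, the regulator of fat cell formation, at 1.08 (SE 0.17, adjusted p = 0.00821), and their list lay 0.25 to 0.51 above control in all 8 restricted pools. The other 7 mesothelial genes lay at a mean of 0.06 to 0.62 above control in 7 restricted pools and 0.54 below in the 5% pool at 1 month, where Slpi was at -0.30. Of the 7, 1 passed limma's threshold restricted against control, Krt18, and it was lower (-0.85, SE 0.16, adjusted p = 0.0187). None of the calls given here for the lists was made in either comparison without the control and 30% pools of 1 week.

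**Figure D3:**
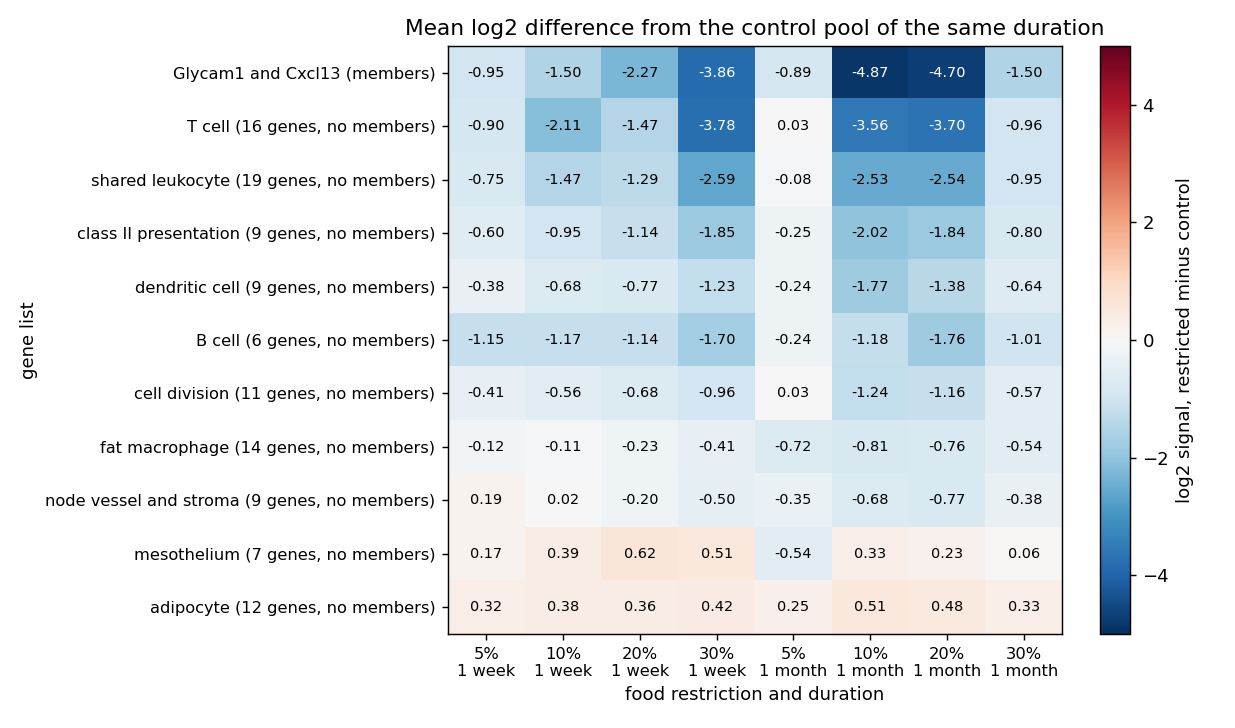
Mean log2 difference from the control pool of the same duration for Glycam1 with Cxcl13 and for 10 lists of genes that are not members, with restricted pools across and lists down. T cell genes lie between -0.90 and -3.78 in 7 pools, and in the 5% pool at 1 month they are at 0.03 and the pair is at -0.89.

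At 1 week the list of 16 exocrine pancreas genes averaged 11.3 (log2) in control and 5.82 at 30% restriction, whereas elsewhere it averaged 2.49 to 2.96. The 1-week pools with the highest and the lowest levels of most members thus both carried pancreas genes, and their part in the members' levels was not tested. Mammary epithelium is a known source of Glycam1 and Slpi. Its casein gene Csn2 had log2 signals of 2.81 to 3.93 and its whey gene Wap 1.10 to 3.16. These are genes of lactation and the rats were male, so the values do not tell whether mammary epithelium was present. Its part in the signals of Glycam1 and Slpi was not tested.

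Genes were ranked by how like their pool profile was to that of the members. Among 7103 genes ranked by Pearson's r over the 10 pools after the duration means were subtracted, the 10 most like the mean of the node genes had r of 0.983 to 0.992, led by Cyb561a3 and Marchf1, with the class II genes RT1-Ba, RT1-Da and Cd74 and the immunoglobulin light chain Iglc1 among them. Il2rb, of the T cell list, was also among these 10 (r of 0.987). The 10 most like the mean of the lymphocyte side had r of 0.991 to 0.998, led by RT1-Ba and the immunoglobulin heavy chain Ighl2, with Ptprc (the leukocyte antigen CD45) among them. Ighl2 ranged over 7.30 on the log2 scale, with a signal of 14.9 in the 10% pool at 1 month and 2349 in the control pool at 1 month. The lists of 10 shared 3 genes (Cyb561a3, RT1-Ba and RT1-Da). By Spearman's rho 0 of the 10 node-like and 1 of the 10 lymphocyte-like genes stayed in the lists, and 7 of 10 in each when the duration means were not subtracted.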

How the data were processed

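RNA pools were hybridised to Affymetrix Rat Expression Set 230 arrays. The deposited values are MAS5 signals, an intensity scaled by the authors chip by chip, and the trimmed mean signal of each chip was 77.2 or 111 on the first and second chips of 1 week and 97.4 to 97.7 at 1 month. Differences were therefore taken between chips of the same number. The MAS5 version is not given in the sources used here. Per the study's design the RNA of 5 rats made a pool.

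Array controls (57 of 15923 probe sets) were left out. Signals were set to at least 1, log2 values of a pool's 2 chips were averaged, and 9520 probe sets with a mean signal of at least 22.8 (the 40th percentile) were tested with limma 3.58.1 (R 4.3.3, lmFit and eBayes with an intensity trend, two-sided, Benjamini-Hochberg over all tested probe sets). The same fits were also run on simulated pools, whose noise was drawn independently for each probe set, unlike genes that move together. The p-values rest on how far pools lay from the fitted model, since each group was a single pool. For the dose slope this includes departure from a straight line and differences between durations in the response to restriction. For restricted against control it also includes differences between levels of restriction. Spread between repeat pools of a group, or between rats, is not measured. The dose slope and the restricted pools against the control pools both had duration as a covariate. Gene symbols came from the platform annotation, in which 12783 probe sets have 1 symbol, 312 several and 2771 none, and 12748 of those matched the RefSeq gene table.

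The members and the lists were chosen with earlier results of these data known. Named were all members, up to 4 genes of each list by size of slope (those past the threshold first) and the 10 genes most like each profile. Other genes named were chosen after their values were seen: Fcer2, Ebf1, Tnfsf11, Selp, Csn2, Wap, Fcer1g and Krt18. Alternatives changed the filter, floor, scaling, trend, fold, chips and pools, and took the replicate number as a block.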

Additional observations from a re-analysis of the deposited data

Results flagged for a closer look

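Madcam1 was the only one of the 10 genes whose 2 durations moved in opposite directions on both chips. In the 5% pools its log2 difference from control was -0.02 at 1 month and 0.18 at 1 week. In the 10% pools it was -0.23 at 1 month and 0.17 at 1 week. All 4 values were smaller than 1 technical SE of a difference (0.26), and the difference between the durations was not tested.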

How the results depend on the processing

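With 1 pool a group and 2 control pools, single pools decide the counts over all tested probe sets. The dose slope called 351 lower and 544 higher. Lower calls numbered 146 with each chip centred on its median, where the higher calls were 574. With the 20 chips as separate observations, the pool as a block and the replicate number as a covariate, 834 were lower and 895 higher. Restricted against control, 152 were lower and 413 higher. The lower calls were 86 without the filter, 71 with median centring, 250 with quantile normalization, 68 without the intensity trend and 781 with the 20 chips as observations. The higher calls were 227 without the trend and 914 with the 20 chips. Same-numbered chips share a replicate number in the labels and not animals. Without both pools that carry pancreas genes the slope called 4 lower and 11 higher, and restricted against control limma called 0 lower and 5 higher (576 and 719 at an unadjusted p under 0.05).

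Leaving out the chips of 1 number or 1 pool gave 26 lower slopes (30% at 1 week left out) to 1008 (10% at 1 month left out) and 84 to 913 higher. For restricted against control it gave 1 (control at 1 week left out) to 966 (5% at 1 month left out) lower and 5 to 1014 higher. Members counted as lower by 1.5-fold ranged with 1 chip from 7 to 8, 6 to 8, 7 to 8 and 8 to 9 at 1 week and were 4, then 8 to 9 in the other 3 pools at 1 month. At 2-fold, 5, 5, 8 and 8 were lower at 1 week and 1, 8, 8 and 8 at 1 month, from 5% to 30%. Slopes of 9 members kept their sign under the 19 or 20 alternatives run for each, from -2.49 to -0.15, and Madcam1 changed sign in 6 of 20.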
